A study of Homo sapiens with 11 samples.

Results

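The genes described here encode the nuclear subunits of the 5 oxidative phosphorylation complexes, together with assembly factors that carry the same name stems. They were taken from the table by symbol, as every entry starting with NDUF (complex I), UQCR or CYC1 (complex III), COX and a digit (complex IV) or ATP5 (complex V), plus SDHA, SDHB, SDHC and SDHD (complex II). This gave 101 of the 20500 entries. By their known roles, 82 are structural subunits (38 of complex I, 4 of complex II, 9 of complex III, 16 of complex IV and 15 of complex V), 13 are assembly factors and 6 belong to neither class. The series measured polyadenylated RNA in 786-0, an established human cell line. It derives from a clear cell renal carcinoma and has no functional VHL, which both groups share. In 5 samples the cells, grown in DMEM, had received everolimus dissolved in DMSO for 4 h, at a dose the labels write as "10um" and which is read here as 10 µM. The 6 control samples had received DMSO alone for the same 4 h. Everolimus is a derivative of rapamycin that inhibits the kinase mTOR in its complex 1.

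Oxidative phosphorylation takes place in the inner mitochondrial membrane. Complexes I and II feed electrons from NADH and succinate into ubiquinone, complex III passes them to cytochrome c, complex IV reduces oxygen, and complex V (ATP synthase) uses the proton gradient that complexes I, III and IV build up. Most subunits are nuclear gene products that are imported and then joined, with the help of assembly factors that insert hemes, copper and iron-sulfur clusters, to a small core encoded in mitochondrial DNA. In clear cell renal carcinoma, loss of VHL stabilises hypoxia-inducible factors, which are known to favour glycolysis over respiration, and mTOR complex 1 is known to promote mitochondrial gene expression through PGC-1alpha and YY1 and through translation.

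Levels are scaled estimates of read counts, called units here. The authors had scaled each library so that the upper quartile of its values above 0 was about 1000, and 1 read was worth 0.307 to 1.05 units. The libraries held 29760921 to 52522889 estimated reads with everolimus and 14230655 to 36828267 in the controls, and the floor set by 3 reads lay at 0.92 to 3.15 units (counting error only). Whether replicates were separate cultures is not stated in the labels, so the p-values rest on a spread between samples that may be technical. The share of low values that were whole multiples of 1 read divided the libraries into a first set (everolimus 1 and 2, controls 1 to 3; 89.4% to 90.3%) and a second set (everolimus 3 to 5, controls 4 to 6; 93.4% to 93.9%), and the labels name no batch. Of 10 renal carcinoma markers, 9 passed the filter on low values, among them PAX8, a renal transcription factor, at 3055 to 3931 units. CA9 did not, at 0 to 3.15 units. Of 14 markers of other cell types, 3 passed it (COL1A1, LUM and SYP), and CD3E, PECAM1 and MYH7 stood at 0 in every library. In bulk RNA, fewer cells of a type and less RNA per cell cannot be told apart.

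Relative to the other transcripts of each library, everolimus moved those of the respiratory complexes little. As each library was scaled to about the same upper quartile, a change in total RNA per cell would not show. Of the 101 genes, 94 passed the filter (a value of at least 10 units in at least 5 of 11 libraries), 76 of them subunits, all 13 assembly factors, and 5 others. Among the 76 subunits, 17 fell and 1 rose at a limma adjusted p under 0.05, while 27.4% of all 12668 tested genes were called lower and 27.8% were called higher. The share of subunits called lower, 22.4%, was thus near that of all genes, and the share called higher, 1.32%, was below it. The median log2 fold change (everolimus over control) was -0.08 over the subunits, with 63 of 76 below 0, and -0.01 over all tested genes. The changes were small: they ran from -0.35 to 0.15, and 2 subunits (2.63%) passed a change of 1.2-fold in either direction, against 36.8% of all tested genes. The median standard error was 0.059 for subunits and 0.058 for all tested genes. In 5 of 76 subunits (6.6%) the everolimus and control libraries did not overlap, against 37.9% of all tested genes, of which 55.2% were called in either direction.

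**Figure D1:**
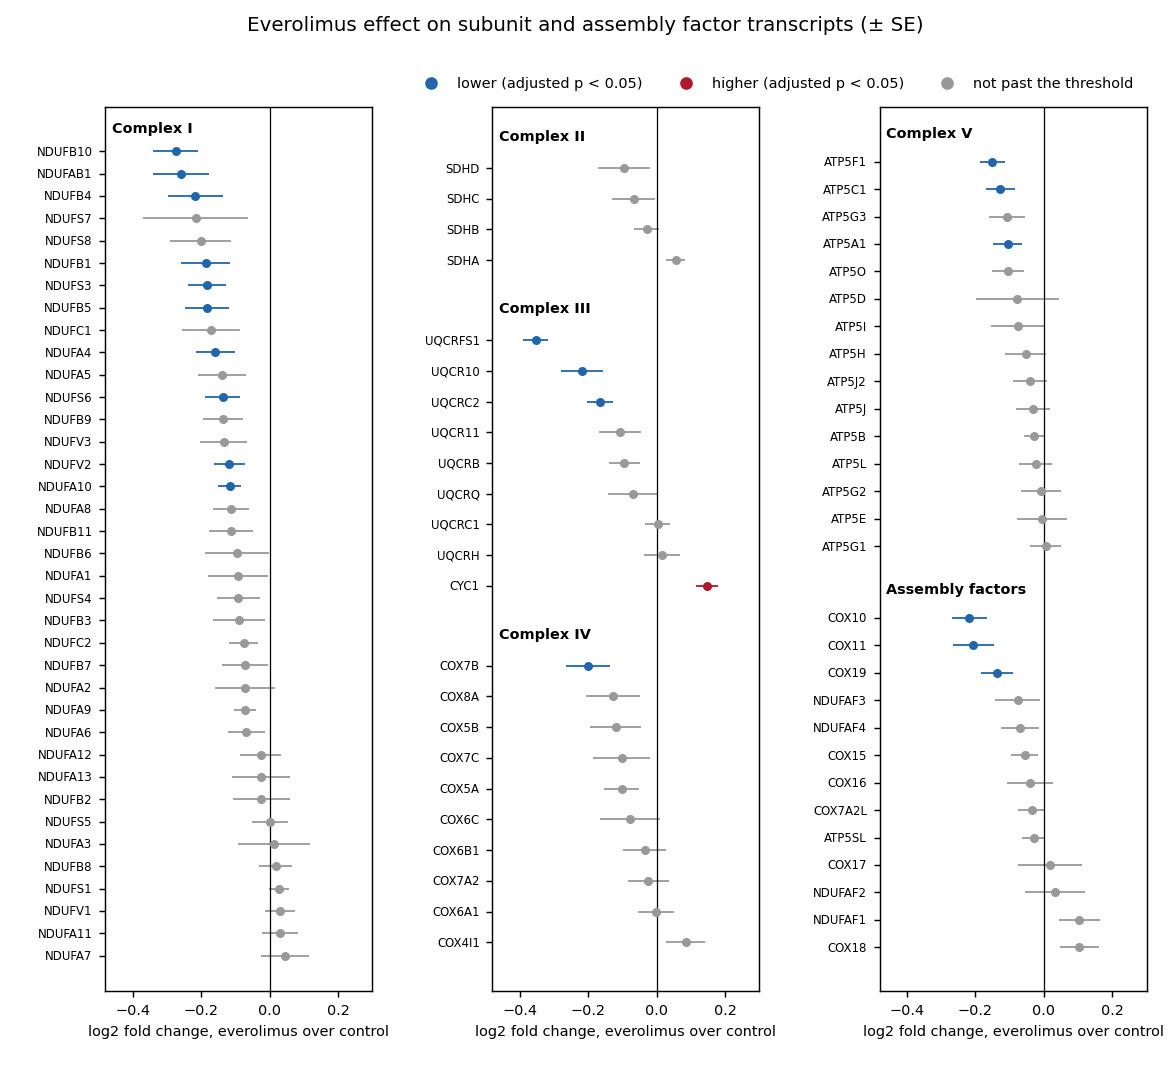
Log2 fold change (everolimus over control, x axis) of the tested subunits, 1 of complex I left out, and assembly factors, each with its standard error as a bar; genes are grouped by complex and ordered from the lowest. Blue points were lower and the red point higher at a limma adjusted p under 0.05, and grey points did not pass it; UQCRFS1 of complex III lies lowest at -0.35 and CYC1 of the same complex highest at 0.15.

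The median log2 fold changes of the complexes lay between -0.095 and -0.048, and differences between complexes were not tested. Over all tested genes, 27.4% were called lower and 27.8% higher. Complex I had 10 of 38 tested subunits lower (26.3%) and 0 higher (median log2 fold change -0.094). Complex III had 3 of 9 lower (33.3%) and 1 higher (median -0.095), and complex IV 1 of 10 lower (10%, median -0.09). NDUFA4, which was called lower, is counted here to complex I by its name, though it is now assigned to complex IV. Complex V had 3 of 15 lower (20%, median -0.05), and 0 of the 4 complex II genes passed the test (median -0.05). The 13 assembly factors had 3 lower (23.1%) and 0 higher, with a median of -0.04.

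The mean log2 level of all 76 subunits, set relative to the control mean, was -0.06, 0.02, -0.11, -0.23 and -0.05 in everolimus 1 to 5. It ran from -0.10 (control 2) to 0.08 (control 3) in the controls. Only everolimus 3 and 4 lay below every control, and the 3 others lay within the control range. Everolimus 4 was the lowest everolimus library for 66 of 76 subunits (86.8%), against 41.7% of all tested genes, and everolimus 2 the highest for 56 (73.7%), against 31%. Without everolimus 4, 9 subunits were called lower, without control 3 it was 10, without control 6 it was 11, and without each other library 13 to 24. These fits called 6431 to 7104 of all 12668 tested genes in either direction, against 6997 with all 11 libraries. Other scalings gave more calls: quantile normalization 29 lower and 1 higher (31.9% and 25.6% of all tested genes), and thinning to equal depth 31 lower and 1 higher (30.9% and 22.2%).

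**Figure D2:**
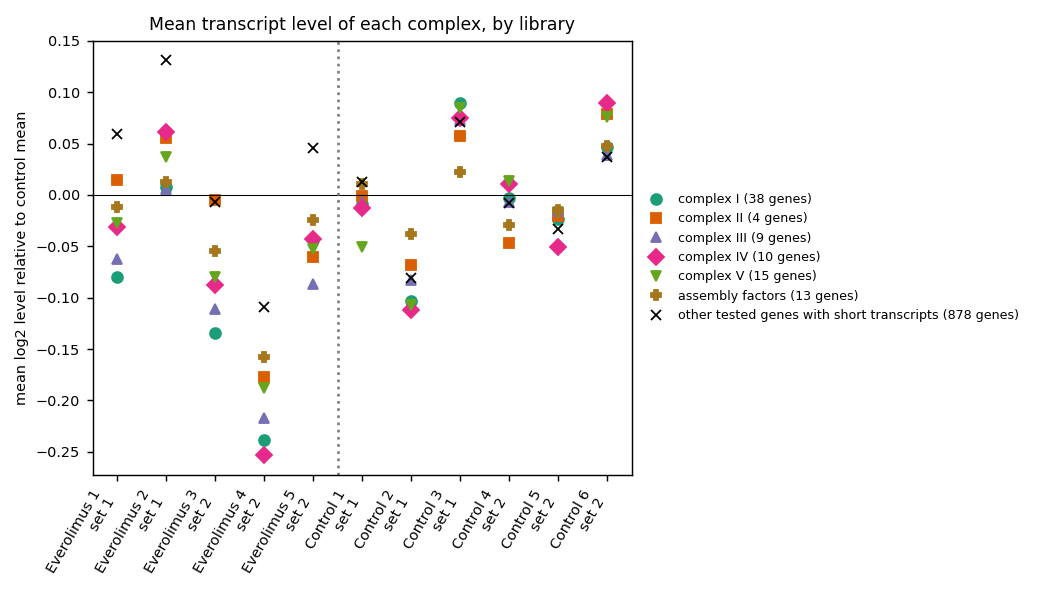
Mean log2 level (log2(value + 1)) of the tested subunits of each complex, of the assembly factors and of 878 other genes with transcripts under 1000 nt, relative to the control mean (y axis), in each everolimus library (left of the dotted line) and each control library (right). The complexes moved together from library to library: everolimus 4 is lowest for all of them, and everolimus 2 and controls 3 and 6 are high.

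The difference was uneven between the library sets, which share no library. Within the first set, 5 subunits were lower and 2 higher, with a median of 0.00 and 36 of 76 below 0. There, 19.3% of all tested genes were called lower and 24.0% higher. Within the second set, 28 subunits were lower and 0 higher, with a median of -0.13 and 69 of 76 below 0, while 22.5% of all tested genes were called lower and 21.1% higher. The log2 fold change was lower in the second set for 67 of 76 subunits. A limma test of the difference of effect between the sets called 0 of the 94 tested genes (smallest adjusted p = 0.785), with 19 at an unadjusted p under 0.05, and it called 0 of all tested genes, with 783 at an unadjusted p under 0.05.

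Other short transcripts also differed between the sets. Subunit transcripts are short (median 751.5 nt, against 2591 nt over tested genes with a length), and 878 other tested genes with transcripts under 1000 nt had a median log2 fold change of 0.05 within the first set and of -0.06 within the second. For genes of 1000 nt or more it was 0.02 and -0.01. Over all 11 libraries the median was -0.022 for the 878 genes and -0.002 for the longer ones, against -0.084 for the subunits. The mean of the 878 genes was lowest in everolimus 4 (-0.11) and highest in everolimus 2 (0.13). A fit added after seeing the data took their median in each library as a covariate (-0.14 in everolimus 4, 0.09 in everolimus 2). In that fit 21 subunits were lower and 3 higher, with a median of -0.06, against 27.8% lower and 29.5% higher among all tested genes. The part of transcript length or depth in these calls was not tested further.

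**Figure D3:**
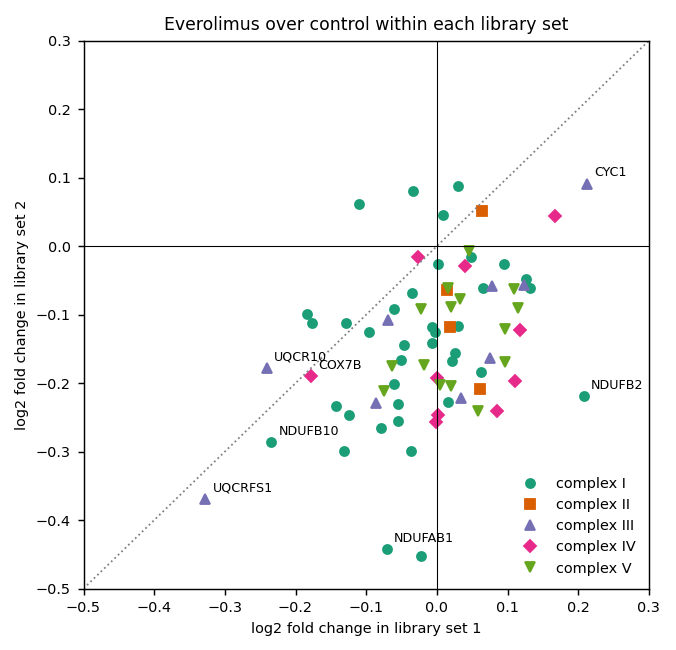
Log2 fold change (everolimus over control) of each tested subunit within library set 1 (x axis) and within library set 2 (y axis); colour and shape give the complex, and the dotted line marks equal values. Most points lie below the dotted line, with medians of 0.00 in set 1 and -0.13 in set 2, while UQCRFS1, NDUFB10, UQCR10 and COX7B are low in both sets and CYC1 is above 0 in both.

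The transcription factor NRF1, with its coactivator PGC-1alpha, is a known regulator of these genes, and the promoters were searched for the NRF1 motif on both strands, spelled as GCGC, an A, any base, and GCGC again. RefSeq promoters of GRCh38.p14 (250 bases before to 50 after the start) were found for 81 of the 101 genes, 67 of them subunits. The motif stood in 16 of these 67 (23.9%), against 6.3% of all 27305 promoters in the table, and in 4 of 7 complex III promoters. Of the 15 tested subunits with the motif, 4 were lower and 0 higher (median log2 fold change -0.10). Of the 48 tested subunits with a promoter without it, 12 were lower and 0 higher (median -0.09). Among all tested genes, 27.4% were called lower and 27.8% higher. The 4 lower subunits with the motif were UQCRFS1, UQCR10, NDUFB4 and ATP5C1. The 150 bases before the start are printed for the 3 in which the match lies there, with the motif in capitals. They are UQCRFS1 at chr19:29213152-29213301 (minus strand), NDUFB4 at chr3:120596186-120596335 (plus strand) and ATP5C1, now ATP5F1C, at chr10:7788027-7788176 (plus strand).
UQCRFS1: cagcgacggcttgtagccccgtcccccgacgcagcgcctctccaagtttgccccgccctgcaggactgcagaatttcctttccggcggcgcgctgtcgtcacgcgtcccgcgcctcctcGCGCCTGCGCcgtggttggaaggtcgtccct
NDUFB4: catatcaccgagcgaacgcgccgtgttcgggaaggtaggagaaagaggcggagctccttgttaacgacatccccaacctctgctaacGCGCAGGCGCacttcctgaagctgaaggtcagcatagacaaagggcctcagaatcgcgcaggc
ATP5C1: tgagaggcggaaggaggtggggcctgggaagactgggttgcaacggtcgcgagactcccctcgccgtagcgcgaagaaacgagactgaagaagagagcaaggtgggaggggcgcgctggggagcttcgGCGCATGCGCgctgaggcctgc
A match describes these letters and not a bound site.

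Complex I, the NADH dehydrogenase, had 2 of 7 core subunits lower, 2 of 10 accessory subunits of the matrix arm and 5 of 20 of the membrane arm. The tenth was NDUFA4, which is named for complex I and now counted to complex IV. Together these were 10 of 38 (26.3%), against 27.4% of all tested genes called lower. NDUFB10, an accessory subunit of the membrane arm, fell the most. It stood at 865, 948, 779, 764 and 952 units in everolimus 1 to 5, against 945 to 1157 units in the controls (median 1043). Everolimus 3 and 4 were lowest, and everolimus 2 and 5 overlapped the lowest control. The means were 862 ± 89.5 units with everolimus and 1039 ± 70.3 in the controls (SD, n = 5 and 6; log2 fold change -0.27, SE 0.066, limma adjusted p = 0.0027). NDUFB10 was called in each set (-0.23 in the first and -0.29 in the second; limma adjusted p = 0.0199 and 0.0116) and in every fit that left out 1 library.

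NDUFAB1, the mitochondrial acyl carrier protein that also serves fatty acid and lipoate synthesis, stood at 885, 844, 823, 824 and 925 units with everolimus, against 874 to 1197 units in the controls (median 1047). Everolimus 1 and 5 overlapped the controls (log2 fold change -0.26, SE 0.082, limma adjusted p = 0.0158). The fall was -0.44 in the second set (limma adjusted p = 7.8e-05) and -0.07 in the first (adjusted p = 0.383). NDUFS3, a core subunit of the peripheral arm, stood at 752, 787, 686, 641 and 755 units with everolimus, against 752 to 857 units in the controls (median 829). Everolimus 3 and 4 lay below all controls and the others overlapped them (log2 fold change -0.18, SE 0.055, limma adjusted p = 0.0109). NDUFS3 too was called in the second set (-0.30) and not in the first (-0.04, limma adjusted p = 0.648). NDUFA10, an accessory subunit of the membrane arm, was the complex I gene whose groups did not overlap. It stood at 1441, 1469, 1459, 1362 and 1374 units with everolimus, against 1484 to 1594 units in the controls (median 1540). The difference was small (log2 fold change -0.12, SE 0.033, limma adjusted p = 0.00865), it was called in all 11 fits that left out 1 library, and it was called in neither set alone (-0.10 and -0.13).

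The other 6 calls of complex I were each lost in several of the fits that left out 1 library. NDUFB4, of the membrane arm, stood at 1456, 1649, 1262, 1205 and 1358 units with everolimus, against 1491 to 1890 units in the controls (log2 fold change -0.22, SE 0.081, limma adjusted p = 0.0352). Everolimus 2 overlapped the controls and the 4 others lay below them. The call was lost without control 1 or 3 or without everolimus 3, 4 or 5 (limma adjusted p up to 0.0997). NDUFB1 (-0.19), also of the membrane arm, lost its call without control 3, 4 or 6 or everolimus 1, 4 or 5, with a limma adjusted p up to 0.0927. NDUFB5 (-0.18) lost it without control 3 or 6 or everolimus 4 (adjusted p up to 0.0758), and NDUFA4 (-0.16) without control 1, 3 or 6 or everolimus 4 or 5 (up to 0.0879). NDUFS6 (-0.14), a zinc-binding accessory subunit of the matrix arm, lost it without control 3, 4, 5 or 6 or everolimus 1, 3 or 4 (up to 0.0982). NDUFV2 (-0.12), a core subunit with an iron-sulfur cluster, lost it without control 3, 5 or 6 or everolimus 3, 4 or 5 (up to 0.108). Within the first set, these 6 genes did not pass the test. Within the second set, all 6 were called lower (limma adjusted p from 0.00574 to 0.0456).

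Among the subunits of complex I that did not pass the test, the core subunit NDUFS7 had the lowest fold change and the widest error. It carries the iron-sulfur cluster next to the ubiquinone site and averaged 481 ± 71.3 units with everolimus and 569 ± 144 in the controls (log2 fold change -0.22, SE 0.152, limma adjusted p = 0.248). The controls alone spanned 400 to 762 units, wider than the everolimus libraries (425 to 605). NDUFA7, an accessory subunit of the matrix arm, had the highest fold change of the complex, 0.04 (SE 0.071, limma adjusted p = 0.625). The core subunit NDUFS1, which holds several iron-sulfur clusters, had a narrow error around 0 (0.03, SE 0.030).

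Complex II, succinate dehydrogenase, links the citric acid cycle to the respiratory chain and is the complex with nuclear subunits only. SDHA, the flavoprotein, stood at 4127, 4303, 4150, 4025 and 4192 units with everolimus, against 3913 to 4174 units in the controls (median 3967). Everolimus 2 and 5 exceeded all controls and the others overlapped them (log2 fold change 0.05, SE 0.028, limma adjusted p = 0.115). SDHB, the iron-sulfur subunit, averaged 1402 ± 45 units with everolimus and 1431 ± 61.9 in the controls (-0.03, SE 0.037). The membrane anchors SDHC (-0.07, SE 0.063) and SDHD (-0.10, SE 0.076) had wider errors, with everolimus 4 lowest for both, at 1291 and 874 units. None of the 4 passed the test, with limma adjusted p from 0.115 to 0.537.

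Complex III held both extremes of all 76 subunits. UQCRFS1, the Rieske iron-sulfur protein, which is inserted late when the complex matures, had the largest fall. It stood at 993, 1044, 975, 946 and 1018 units with everolimus, against 1227 to 1343 units in the controls (median 1264). Every everolimus library lay below every control. The means were 995 ± 37.8 units with everolimus and 1272 ± 42.3 in the controls (SD, n = 5 and 6; log2 fold change -0.35, SE 0.036, limma adjusted p = 1.14e-06). It fell in the first set (-0.33, limma adjusted p = 0.000714) and in the second (-0.37, adjusted p = 0.000163), and it kept its call in all 11 fits that left out 1 library and in all 14 other alternatives. With NDUFB10, it made up the 2 subunits past 1.2-fold.

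CYC1, cytochrome c1, which hands electrons from the Rieske protein to cytochrome c, was the subunit that rose. It stood at 3478, 3699, 3488, 3335 and 3556 units with everolimus, against 3056 to 3294 units in the controls (median 3147). Every everolimus library lay above every control (log2 fold change 0.15, SE 0.033, limma adjusted p = 0.00166). The value was 0.21 in the first set (limma adjusted p = 0.00348) and 0.09 in the second, where it did not pass the test (adjusted p = 0.17). UQCRC2, a core protein of the matrix side, stood at 2272, 2238, 2143, 2127 and 2116 units with everolimus, against 2290 to 2591 units in the controls (median 2468). The groups did not overlap, with everolimus 1 close to the lowest control (log2 fold change -0.17, SE 0.039, limma adjusted p = 0.00218). It fell in the second set (-0.23) and did not pass the test in the first (-0.09, limma adjusted p = 0.259). Its partner UQCRC1 had a fold change of 0.00 (SE 0.037), with 2592 ± 113 units with everolimus and 2586 ± 99 in the controls.

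UQCR10, a small subunit next to cytochrome c1, stood at 1058, 1206, 1023, 1003 and 1156 units with everolimus, against 1142 to 1419 units in the controls (median 1255). Everolimus 2 and 5 overlapped the controls (log2 fold change -0.22, SE 0.061, limma adjusted p = 0.00708). It was called in both sets (-0.24 and -0.18; limma adjusted p = 0.0162 and 0.0476) and in all other fits. UQCRH, the hinge protein between cytochrome c1 and cytochrome c, had a fold change of 0.01 (SE 0.053), and its near-identical intronless copy UQCRHL one of -0.04 (SE 0.078). How reads were divided between these 2 is uncertain.

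**Figure D4:**
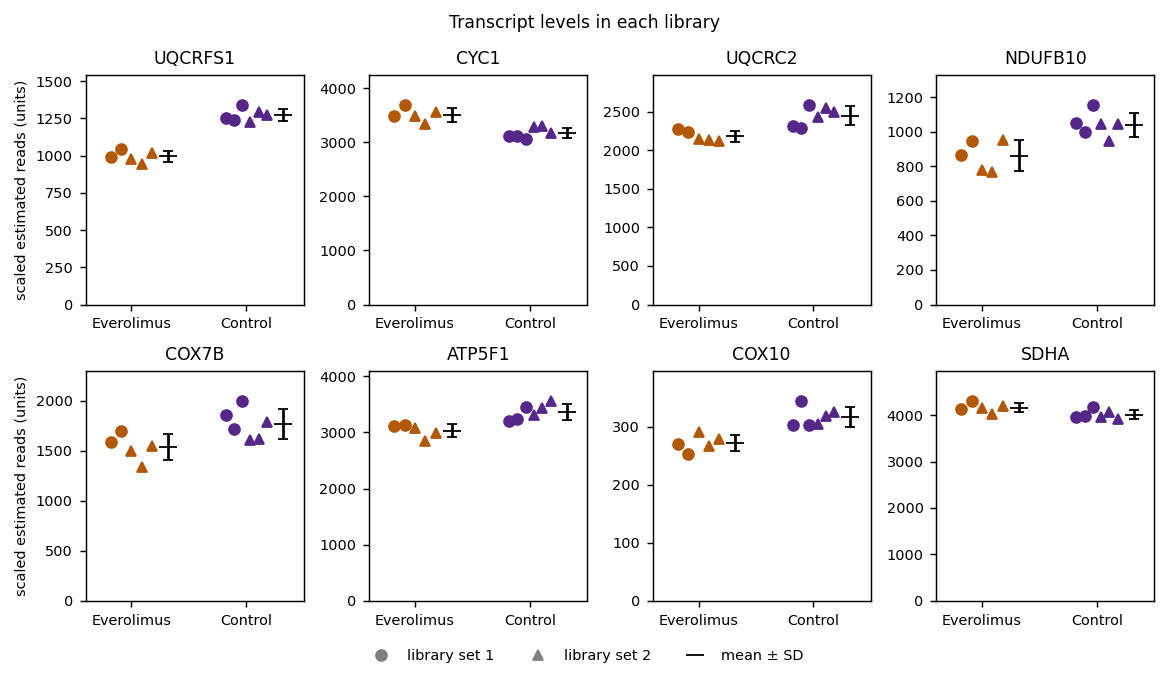
Levels (scaled estimated reads, y axes starting at 0) of 8 genes in the everolimus libraries (left, orange) and control libraries (right, purple); circles are library set 1 and triangles set 2, and the bars give mean ± SD (n = 5 and 6). The groups are apart for UQCRFS1, CYC1, UQCRC2, ATP5F1 and COX10 and overlap for NDUFB10, COX7B and SDHA.

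Complex IV, cytochrome c oxidase, has subunits with tissue-restricted isoforms, and these were silent or nearly so. COX6A2, COX7B2 and COX8C were at 0 in all 11 libraries. COX4I2, an isoform of lung and hypoxic cells, reached 0.42 units with everolimus and was at 0 in the controls. COX7A1, of heart and muscle, reached 0.53 units with everolimus and 1.05 in the controls, and COX6B2, of testis, reached 0.61 units with everolimus and 1.16 in the controls. All of these lie at or below the floor of 3 reads and were not tested. NDUFA4L2, a paralog of NDUFA4 known as a target of hypoxia-inducible factor, was the other gene that did not pass the filter, at 0.53 to 5.17 units with everolimus and 0.68 to 7.22 in the controls.

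Of the 10 broadly expressed subunits, COX7B, a small subunit needed for assembly, was the 1 that fell. It stood at 1592, 1694, 1503, 1343 and 1551 units with everolimus, against 1612 to 1999 units in the controls (median 1755). Everolimus 2 overlapped the controls and the 4 others lay just below them or lower (log2 fold change -0.20, SE 0.064, limma adjusted p = 0.0163). It was called in both sets (-0.18 and -0.19; limma adjusted p = 0.0432 and 0.0345) and in all other fits. COX4I1, the common isoform of the regulatory subunit 4, had the highest value, 4861 ± 476 units with everolimus and 4573 ± 230 in the controls (0.08, SE 0.058, limma adjusted p = 0.234). It was called higher in the first set (0.17, limma adjusted p = 0.0295) and not in the second (0.04). COX6A1 (0.00, SE 0.053), COX6B1 (-0.03, SE 0.063) and COX7A2 (-0.02, SE 0.059) lay near 0, and COX8A had -0.13 (SE 0.080, limma adjusted p = 0.195).

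Complex V, ATP synthase, had 2 of 5 tested subunits of the catalytic F1 head lower, 0 of 3 c ring genes, and 1 of 7 of the stalks and membrane part. Together these were 3 of 15 (20%), against 27.4% of all tested genes called lower. ATP5F1 (now ATP5PB), the b subunit of the peripheral stalk, stood at 3110, 3136, 3071, 2838 and 2992 units with everolimus, against 3199 to 3558 units in the controls (median 3375). The groups did not overlap (log2 fold change -0.15, SE 0.037, limma adjusted p = 0.00288). It fell in the second set (-0.21, limma adjusted p = 0.00573) and did not pass the test in the first (-0.08, adjusted p = 0.229). ATP5C1, the gamma subunit that turns inside the head, stood at 3506, 3623, 3433, 3236 and 3466 units with everolimus, against 3522 to 4086 units in the controls (median 3718). Everolimus 2 overlapped the controls (log2 fold change -0.13, SE 0.043, limma adjusted p = 0.0222), and without everolimus 4 the limma adjusted p was 0.0629. It fell in the second set (-0.18, limma adjusted p = 0.0178) and did not pass the test in the first (-0.06, adjusted p = 0.451).

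ATP5A1, the alpha subunit, averaged 5972 ± 246 units with everolimus and 6431 ± 373 in the controls. It was the weakest call (log2 fold change -0.11, SE 0.043, limma adjusted p = 0.0483). It was lost without control 3, 4, 5 or 6 or everolimus 1, 3, 4 or 5 (limma adjusted p up to 0.118), and in the first set its sign turned (0.00, adjusted p = 0.946), against -0.20 in the second. ATP5B, the catalytic beta subunit, had 10385 ± 352 units with everolimus and 10595 ± 250.1 in the controls (-0.03, SE 0.030, limma adjusted p = 0.442). The 3 genes ATP5G1, ATP5G2 and ATP5G3 encode the same mature c subunit with different import sequences. Their fold changes were 0.01 (SE 0.045), -0.01 (SE 0.058) and -0.11 (SE 0.053). ATP5G3 missed the threshold (limma adjusted p = 0.0976) and was called lower in the second set alone (-0.20, limma adjusted p = 0.0122).

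Among the 13 assembly factors, 3 fell (23.1%), against 27.4% of all tested genes called lower. These 3 supply cofactors of complex IV, to which 8 of the 13 factors belong, and 0 of 5 complex I factors passed the test. COX10, which makes the heme O precursor of heme A, stood at 270, 253, 291, 267 and 279 units with everolimus, against 302 to 344 units in the controls (median 311). The groups did not overlap (log2 fold change -0.22, SE 0.052, limma adjusted p = 0.00244). It was called in the first set (-0.27, limma adjusted p = 0.0249) and missed the threshold in the second (-0.18, adjusted p = 0.0795). COX11, which delivers copper to the CuB site, stood at 1239, 1290, 1325, 1102 and 1262 units with everolimus, against 1288 to 1636 units in the controls (median 1423). Everolimus 2 and 3 overlapped the controls (log2 fold change -0.21, SE 0.060, limma adjusted p = 0.0096), and the first set alone did not pass the test (-0.12, adjusted p = 0.13). COX19, which works with COX11, averaged 307 ± 9.04 units with everolimus and 338 ± 17.5 in the controls (-0.14, SE 0.047, limma adjusted p = 0.0215) and passed the test in neither set (-0.14 and -0.12).

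Other cofactor genes of complex IV did not pass the test. COX15, which completes heme A, had -0.06 (SE 0.039), and COX17, the copper chaperone of the intermembrane space, had 0.02 (SE 0.093). COX18, a membrane insertase, and NDUFAF1, of complex I, had the highest values among the assembly factors, both 0.10 (SE 0.057 and 0.060; limma adjusted p = 0.139 and 0.163). COX7A2L, which helps to join complexes III and IV into supercomplexes, had -0.04 (SE 0.040). Of the 6 genes that belong to no class, COX4NB (now EMC8, of the endoplasmic reticulum membrane complex, which shares only its name stem) fell, with 814 ± 26.7 units with everolimus and 870 ± 11 in the controls. Its groups did not overlap (log2 fold change -0.10, SE 0.032, limma adjusted p = 0.0207), and the call was lost without everolimus 1 or 4 (adjusted p up to 0.0649). The copies ATP5EP2 (-0.19, SE 0.170) and ATP5L2 (0.00, SE 0.309), whose reads are hard to divide from ATP5E and ATP5L, had wide errors, and ATP5S, coupling factor B, had -0.03 (SE 0.136).

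Assembly factors with other names than the subunits had log2 fold changes from -0.60 to 0.50. Of 38 such genes looked for, 36 were found and tested, with a median log2 fold change of -0.13. Of these, 16 were lower (44.4%) and 2 higher (5.56%), beside 27.4% lower and 27.8% higher over all tested genes. In the first set 8 of the 36 were lower, beside 19.3% of all tested genes. In the second set it was 14, beside 22.5%. C2orf56 (now NDUFAF7), a methyltransferase that acts in complex I assembly, stood at 217, 236, 205, 195 and 240 units with everolimus, against 293 to 364 units in the controls (median 335). The groups were well apart (log2 fold change -0.60, SE 0.071, limma adjusted p = 5.48e-06), with -0.59 in both sets. TMEM70, which helps to build the c ring of ATP synthase, stood at 491, 532, 514, 449 and 474 units with everolimus, against 629 to 673 units in the controls (median 641). All everolimus libraries lay below all controls (log2 fold change -0.40, SE 0.046, limma adjusted p = 4.75e-06).

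The 4 genes looked for that assemble complex II, SDHAF1 (-0.34, SE 0.098), SDHAF2 (-0.22, SE 0.047), ACN9 (now SDHAF3; -0.35, SE 0.099) and C6orf57 (now SDHAF4; -0.43, SE 0.129), were all lower, at limma adjusted p from 0.00107 to 0.0115, while none of the 4 SDH subunits passed the test. SDHAF2 attaches the flavin to SDHA. SDHAF1 and SDHAF2 passed the test in the second set alone, and ACN9 and C6orf57 in the first alone. Among complex IV factors, CCDC56 (now COA3; -0.32, SE 0.068), CHCHD8 (COA4; -0.28, SE 0.043) and C1orf31 (COA6; -0.30, SE 0.075) fell as well. Of these, CHCHD8 was called in both sets.

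Of 3 factors that handle the Rieske protein of complex III, 2 rose. TTC19, which helps to clear Rieske fragments from the assembled complex, stood at 1092, 1120, 1148, 1067 and 1065 units with everolimus, against 739 to 825 units in the controls (median 770). All everolimus libraries lay far above all controls (log2 fold change 0.50, SE 0.040, limma adjusted p = 1.01e-07), with 0.53 within set 1 and 0.48 within set 2. BCS1L, the translocase that inserts the Rieske protein, had 407 ± 14.4 units with everolimus and 368 ± 32.4 in the controls (0.15, SE 0.060, limma adjusted p = 0.0494). The call held without control 2, 3 or 4, was lost without control 1, 5 or 6 or any 1 everolimus library (limma adjusted p up to 0.11), and was made in neither set. LYRM7, the chaperone that holds the Rieske protein before insertion, had -0.07 (SE 0.055, limma adjusted p = 0.315). UQCC (UQCC1), which assists cytochrome b, fell by 0.23 on the log2 scale (SE 0.036, limma adjusted p = 7.24e-05).

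Of 23 carriers and regulators, 22 were tested, 4 were lower (18.2%) and 5 higher (22.7%), both shares below those over all tested genes (27.4% and 27.8%). PPARGC1A, which encodes the coactivator PGC-1alpha, had the largest fall of any gene listed here. It stood at 48.4, 70.2, 56.4, 34.8 and 80.7 units with everolimus, against 112 to 213 units in the controls (median 170). The groups did not overlap (log2 fold change -1.53, SE 0.201, limma adjusted p = 1.58e-05), and the sets gave -1.55 and -1.48. NRF1 stood at 253, 274, 240, 242 and 281 units with everolimus, against 306 to 350 units in the controls (median 341; log2 fold change -0.38, SE 0.056, limma adjusted p = 4.54e-05). Its groups did not overlap either. ATPIF1, the inhibitor of ATP synthase hydrolysis, fell by 0.33 on the log2 scale, with 1606 ± 136 units with everolimus and 2024 ± 143 in the controls (SE 0.060, limma adjusted p = 0.000258). The fourth was C17orf42 (now TEFM), the mitochondrial transcription elongation factor, which fell by 0.34.

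The 5 higher genes were C10orf2, POLG, TFB1M, TFB2M and GABPB1. C10orf2 (now TWNK), the mitochondrial DNA helicase, stood at 679, 681, 686, 648 and 658 units with everolimus, against 473 to 539 units in the controls (median 503; log2 fold change 0.42, SE 0.041, limma adjusted p = 9.54e-07). The groups did not overlap. POLG, the mitochondrial DNA polymerase, rose by 0.21, TFB1M, a methyltransferase of mitochondrial ribosomal RNA, by 0.30, and TFB2M, the mitochondrial transcription initiation factor, by 0.24. TFB1M and TFB2M passed the test in the first set and not in the second (0.19 and 0.13). GABPB1, a subunit of the GABP transcription factor, rose by 0.37. CYCS, cytochrome c itself, had 0.04 (SE 0.068), TFAM 0.08 (SE 0.048), GABPA 0.12 (SE 0.078), YY1 -0.03 (SE 0.040) and ESRRA -0.10 (SE 0.082), and none of these passed the test. Under the names searched, 0 of the 13 mitochondrially encoded subunits were in the table, so their transcripts were not analysed here.

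**Figure D5:**
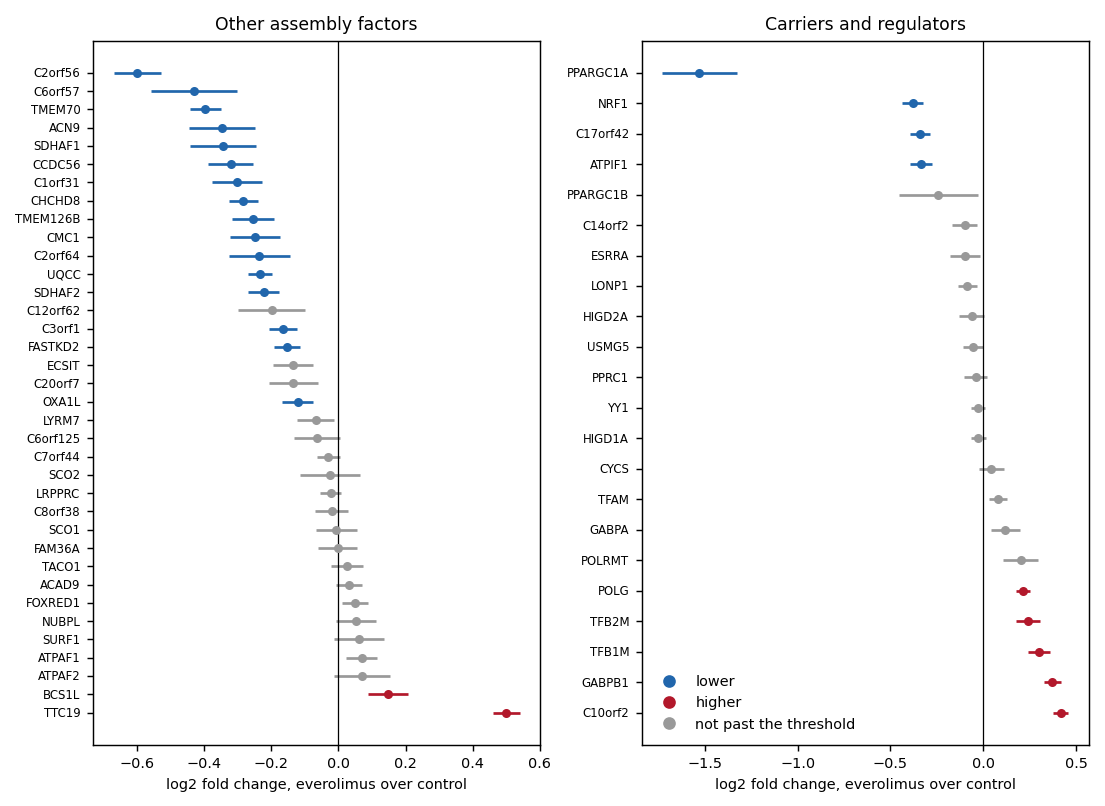
Log2 fold change (everolimus over control, x axes, which differ in scale) with its standard error as a bar for assembly factors outside the name rule (left) and for carriers and regulators (right), ordered from the lowest. Blue points were lower and red points higher at a limma adjusted p under 0.05, and grey points did not pass it; C2orf56 lies at -0.60 and TTC19 at 0.50 on the left, and PPARGC1A at -1.53 on the right.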

How the data were processed

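The authors deposited 1 table with a scaled expression signal per gene and sample. Per the submitters' processing notes, the build was hg19 and Picard 1.64, SAMtools and RSEM (a read count estimator) were used, with no roles given. Which aligner, annotation and strand setting were used is not given in the sources used here. Libraries came from a stranded kit for polyadenylated RNA, per the labels' protocols. Some low values were not whole multiples of 1 read (within 0.1 reads, up to 200 reads), so no count model was used. The deposited signal was tested on log2(value + 1) with limma 3.58.1 in R 4.3.3 (intensity trend) over genes with at least 10 units in at least 5 libraries. That test, also run on simulated data, was two-sided, with Benjamini-Hochberg adjustment over all 12668 genes and a threshold of 0.05. Fold changes understate changes of low genes. Alternatives changed scaling, filter, pseudocount, variance model, depth, library set and replicates. All 101 symbols matched RefSeq, 79 as current and 22 as older symbols. Transcript lengths are medians from GENCODE 29. The text names each member past the threshold, the highest and lowest of each complex, isoform families and all SDH genes. A few further members were named after their values were seen. Members and lists were chosen with earlier results of these data known. Counts and medians cover all tested members, and members not named stand in these only. The values of 1 complex I subunit are not reported here.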

Additional observations from a re-analysis of the deposited data

Results flagged for a closer look

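In 2 of the 58 groups of values examined (22 called genes and 7 gene groups, each in both treatments), 1 library stood apart from the rest of its group. Chance would give about 1 such case in 20 groups. For NDUFB5, everolimus 4 stood at 1001.8 units and the next everolimus library at 1155.3, a gap of 0.758 of the group's range. For NDUFV2, everolimus 4 stood at 865.8 units and the next at 959.4, a gap of 0.710 of the range. Everolimus 4 was also the lowest everolimus library for 66 of the 76 tested subunits, and both genes lost their call without it.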

How the results depend on the processing

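All numbers here count tested genes at a limma adjusted p under 0.05 unless a median log2 fold change is named. Leaving out 1 library at a time gave 9 to 24 subunits lower (main 17) and 1 to 2 higher (main 1), with medians of -0.121 to -0.040. Of all 12668 tested genes, 6431 to 7104 were then called in either direction (main 6997). Complex I had 4 to 12 lower, complex IV 1 to 3 lower and 0 to 1 higher, complex V 1 to 5 lower, and assembly factors outside the name rule 1 to 2 higher. Quantile normalization gave 29 subunits lower (complex I 17, IV 2, V 6; all-gene median -0.037, 31.9% of all genes lower). Thinning to equal depth gave 31 (I 19, III 5, IV 2, V 5; all-gene median -0.049, 30.9% lower). Median centring gave complex V 5 lower, limma without the trend complex I 6 lower, and robust weights 1 assembly factor higher. The short-transcript covariate, chosen after seeing the data, gave 3 subunits higher, with complex II 1 and complex IV 1. Library set 1 alone gave 5 lower and 2 higher, with a median of 0.003 (complex I 2 lower, V 0 lower, IV 1 higher; medians 0.039 for II, 0.035 for III and 0.021 for IV). It gave 1 assembly factor lower and, outside the name rule, 8 lower and 1 higher. There ATP5A1 (0.005) and C2orf64 (0.025), lower over all libraries, changed sign. Library set 2 alone gave 28 lower and 0 higher (III 0 higher with a median of -0.163, IV 5 lower with -0.191, V 6 lower), 1 assembly factor lower and 3 carriers and regulators higher. Outside the name rule, 1 assembly factor, TTC19, was higher (main 2) in set 2, without the filter, without the trend, at a pseudocount of 10, with quantile normalization, after thinning and under the replicate block. Same-number correlations of deviations from the group means were 0.603, 0.422, -0.508, 0.336 and 0.351, and everolimus 1 to 5 correlated best with controls 1, 3, 6, 5 and 4. The deviations were not adjusted for library set, and everolimus 3 and control 3 lie in different sets. This check therefore cannot decide whether replicate numbers pair the samples. The replicate block also left out control 6, which has no everolimus library of its number. With it, 10 subunits were lower and 1 higher (complex I 5 lower, complex V 1 lower), against 23.6% lower and 25.9% higher among all genes. Leaving out control 6 without a block gave 11 subunits lower (complex I 5), so the part of the block itself cannot be read from this fit. The 14 alternatives besides those leaving out 1 library at a time gave 308 values of the called members. Of these, 269 kept their direction and call, 38 lost the call and 1 changed sign. Changes of sign among uncalled genes were not counted. At a median standard error of 0.059, no subunit with a log2 fold change nearer 0 than that of ATP5A1 (-0.11) was called. The cause of the dependence on library set was not tested.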

Other observations

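Other motifs were searched in the same RefSeq promoters on both strands, and no 2 of the motifs overlapped in any promoter. The ETS motif CCGGAAGT, of the kind bound by GABP, stood in 9 of 67 subunit promoters (13.4%), against 4.4% of all promoters, and 0 of the 9 tested subunits with it were called lower or higher (median log2 fold change -0.07). Of the 54 tested subunits with a promoter without it, 16 were lower and 0 higher (median -0.09), beside 27.4% lower and 27.8% higher over all tested genes. The YY1 motif AAGATGGC stood in 11 of 67 (16.4%), against 3.0%, with 6 of these in complex I promoters and 0 in complex IV promoters. Of the 11 tested subunits with it, ATP5F1 was lower and 0 were higher (median -0.07), and of the 52 without it, 15 were lower and 0 higher (median -0.10). The ERR motif TCAAGGTCA stood in 1 subunit promoter, that of SDHD (1.5%, against 0.4%).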
